A study of Mus musculus with 6 samples.

Results

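The glucocorticoid receptor gene Nr3c1 and 8 genes known as targets of the receptor, Sgk1, Fkbp5, Tsc22d3, Klf15, Klf9, Zbtb16, Cebpd and Ddit4, were examined for chromatin accessibility in mouse myonuclei after knockdown of Yap. The members were picked by gene symbol, and all 9 had a row among the 49366 promoter windows, so none was lost to the filter on low counts. In addition, 6 peaks of a 200 kb region around Sgk1 and 2 peaks of a 170 kb region around Nr3c1 were taken from the 36097 peaks of the series. For the other 7 members, 51 peaks overlapped the gene or lay within 50 kb of one of its annotated transcript starts. Nr3c1 and Sgk1 were chosen by measured values. The study named them among genes with lower RNA and lower accessibility of an associated enhancer in this contrast, with ATAC-seq from these samples. Its criterion was enhancers and not the promoter windows used here. In addition, the Sgk1 region was proposed with the fold change of its peaks known. The differences of Nr3c1 and Sgk1 between groups are therefore given as a description. Where a call past a threshold is reported for them, it is part of that description and no support for a change. The other 7 are known targets, but they too were listed with results of this contrast in view, so counts over them describe the genes and are not independent support.

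The assay was ATAC-seq, which uses a transposase to insert sequencing adapters where chromatin is open. The nuclei were sorted for PCM1, a protein at the surface of muscle fibre nuclei, from the gastrocnemius and the tibialis anterior (TA) of male C57BL/6J mice that received AAV6 vectors at 8 weeks of age and were collected 28 days later. One limb received a vector for a short hairpin RNA against Yap (Yap-shRNA) and the opposite limb one against the bacterial gene lacZ (LacZ-shRNA), so every sample carries AAV6 and an shRNA. Each of the 3 replicates per group pooled 4 gastrocnemius and 4 TA muscles.

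Glucocorticoids are steroid hormones that enter cells and bind the glucocorticoid receptor, which waits in the cytoplasm with heat shock proteins and then moves to the nucleus. There the receptor binds DNA as a dimer at short palindromes, the glucocorticoid response elements, and recruits coactivators. In skeletal muscle these hormones are known for promoting protein breakdown and for shifting fuel use, and several of the targets examined here are used as readouts of receptor activity.

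Sequences that match the receptor's palindrome were searched in the peaks of the 9 genes, because they are the DNA feature that ties these genes to the receptor. The element was spelled as the arms GNACA and TGTNC, 3 bases apart, and a stricter form as AGAACA and TGTTCT, 3 bases apart. Both were searched on both strands, and each strict match is also a match of the first form. The element was present 18 times in 14 of the 59 member peaks. The strict form was present in 10 of 35982 peaks with sequence, and 2 of these were member peaks, at Sgk1 and at Fkbp5. Below, the capitals mark the 13-base element, and every stretch is from build GRCm38 and is written on the strand of its gene. The first lies beyond the 3′ end of Sgk1 (chr10:22000337-22000377, plus strand, intergenic). The others lie in an Fkbp5 intron (chr17:28420308-28420348, minus strand, strict form), upstream of Fkbp5 (chr17:28518166-28518206, minus strand, intergenic) and past the 3′ end of Tsc22d3 (chrX:140513541-140513581, minus strand, intergenic). The last ones lie in a Klf15 intron (chr6:90471376-90471416, plus strand), upstream of Klf9 in an intron of 2410080I02Rik (chr19:23135079-23135119, plus strand) and in a Zbtb16 intron (chr9:48723690-48723730, minus strand).
Sgk1 beyond the 3′ end: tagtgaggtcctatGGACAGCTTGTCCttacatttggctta
Fkbp5 intron, strict form: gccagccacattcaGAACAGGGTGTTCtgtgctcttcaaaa
Fkbp5 upstream: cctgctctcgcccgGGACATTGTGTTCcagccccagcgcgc
Tsc22d3 beyond the 3′ end: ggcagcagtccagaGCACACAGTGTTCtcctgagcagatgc
Klf15 intron: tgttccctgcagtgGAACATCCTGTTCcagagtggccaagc
Klf9 upstream: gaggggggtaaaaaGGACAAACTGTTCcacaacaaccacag
Zbtb16 intron: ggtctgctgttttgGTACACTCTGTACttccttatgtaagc

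The strict element of Sgk1 sat inside an annotated promoter, and 250 bases before that transcript start are shown to give its surroundings (RefSeq, GRCm38.p6, chr10:21993640-21993889, plus strand, within an intron of longer Sgk1 transcripts). The capitals mark the strict palindrome, which ends 174 bases before the start, and a match to the TEAD motif ACATTCC, which ends 81 bases before it. TEAD factors are the DNA-binding partners of Yap.
Sgk1 promoter: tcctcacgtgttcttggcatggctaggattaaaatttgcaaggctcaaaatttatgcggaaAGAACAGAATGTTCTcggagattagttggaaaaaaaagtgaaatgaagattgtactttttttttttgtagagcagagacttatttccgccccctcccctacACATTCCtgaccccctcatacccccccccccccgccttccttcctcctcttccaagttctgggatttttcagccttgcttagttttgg

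Of 13 RefSeq promoter sequences found for 6 of the 9 members, each 250 bases before to 50 after a start, this was the only one with the element, against 0.475% of 32851 promoters. A match is a description of the letters, not of binding.

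Counts in peaks ranged from 2588520 to 6871176 per sample, and counts in windows from 3326803 to 10319467. The lowest totals in both tables belonged to LacZ-shRNA replicates 1 and 2. Levels are given as CPM, counts scaled to a common library size with TMM factors, and per kb of window where genes are compared. Differences are log2 fold changes, negative where Yap-shRNA was lower, each with a standard error (SE) from the edgeR quasi-likelihood test, and adjusted p-values use Benjamini-Hochberg over all windows or all peaks. Replicates are separate pools of muscles, and the p-values measure the spread between them. The groups come from opposite limbs of the same mice. Which pools share mice is not stated, so the test ran without pairs and its p-values leave this sharing out. An shRNA acts on RNA, so accessibility at the Yap gene does not check the knockdown. Mean marker levels were 20.3 to 26.7 CPM per kb in LacZ-shRNA and 21.1 to 24.8 in Yap-shRNA for 8 muscle fibre genes. The 6 fibroblast, 5 endothelial and 6 leukocyte genes lay between 3.97 and 6.39 in all samples, and the 4 satellite cell genes between 6.55 and 8.15. The mean of the endothelial markers was 5.82 to 6.39 in LacZ-shRNA and 5.06 to 5.47 in Yap-shRNA, with no overlap. By gene, 3 of the 5 were lower in Yap-shRNA and 2 higher, with log2 fold changes from -0.59 to 0.16. Their part in the results was not tested.

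The control samples were not alike at these genes. LacZ-shRNA replicate 1 was the lowest control in all 9 member windows, and LacZ-shRNA replicate 3 the highest in 8 of 9. LacZ-shRNA replicate 1 was also the lowest control in most windows of the 2 lists of pathway genes read below. Its rank was not counted over all windows, so this is not shown to be particular to the members. On the log2 scale, the median deviation of the 9 windows from their own means was -0.16 in LacZ-shRNA replicate 1, 0.15 in replicate 2 and 0.32 in replicate 3. It was -0.17, -0.15 and -0.07 in the Yap-shRNA replicates, so LacZ-shRNA replicate 1 stood with the Yap-shRNA samples. Without LacZ-shRNA replicate 3 the differences of most members shrank, and values without either library are given beside the member windows they moved by over 1.5 times.

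All 9 promoter windows had a lower fitted level in Yap-shRNA, by 0.10 to 0.47 on the log2 scale, and none passed the adjusted threshold of 0.05. Over all windows 0.0223% passed and 52.7% had a log2 fold change below 0. The median log2 fold change was -0.24 for the 9 members, which is the value of Nr3c1 itself, -0.21 for the 7 members other than Nr3c1 and Sgk1, and -0.01 for all windows. Among the 3787 windows with at least the CPM of the lowest member, 43.9% were below 0 and the median was 0.02. Among the 5923 windows with at least the CPM per kb of the lowest member, 50.8% were below 0 and the median was -0.002. Fewer nuclei of a kind and less accessibility per nucleus cannot be told apart in pooled nuclei. Without LacZ-shRNA replicate 1 the median was -0.34 for the 9 and -0.33 for the 7. Without LacZ-shRNA replicate 3 it was -0.12 for the 9 and -0.046 for the 7, of which 6 remained below 0.

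**Figure D1:**
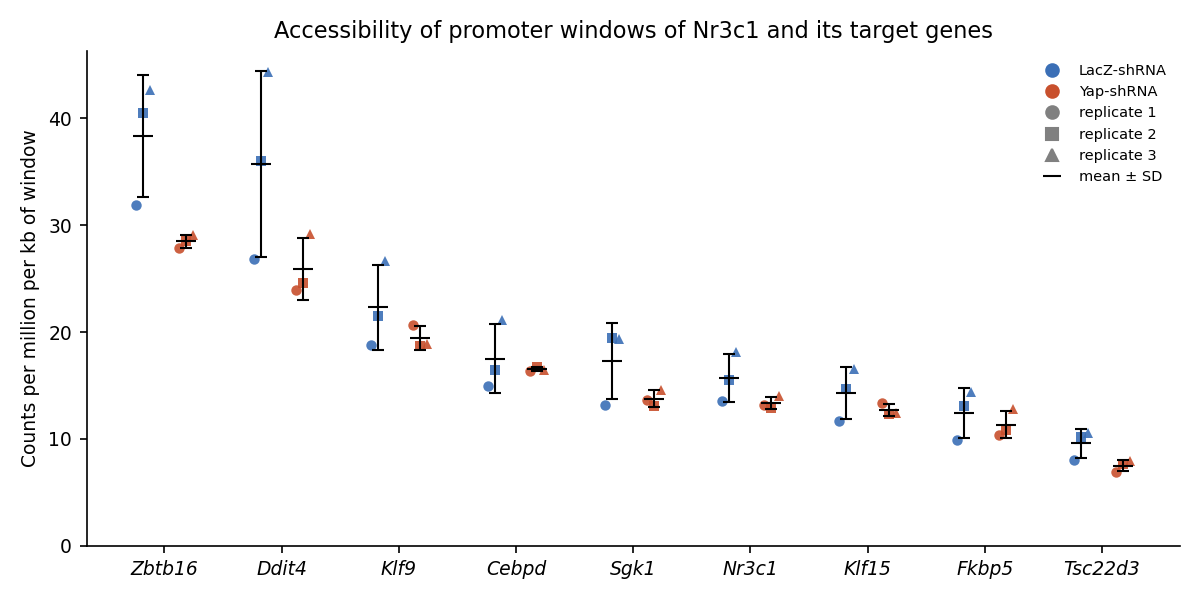
Accessibility of the promoter windows of the 9 genes in each sample, in CPM per kb of window (vertical axis), ordered by the LacZ-shRNA mean. Points are samples, with shapes for replicate numbers, and bars are mean ± SD (n = 3). The Yap-shRNA samples of Zbtb16 (27.9 to 29.1) and Tsc22d3 (6.92 to 7.92) lie below every LacZ-shRNA sample, and LacZ-shRNA replicate 1 is the lowest control for each gene.

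Nr3c1 encodes the receptor itself. Its window (ENSMUSG00000024431, chromosome 18, minus strand, 9 transcript starts) held 13.6, 15.5 and 18.1 CPM per kb in LacZ-shRNA and 13.2, 12.9 and 14.01 in Yap-shRNA. The groups overlapped because LacZ-shRNA replicate 1 lay below the highest Yap-shRNA sample, and the log2 fold change was -0.24 (SE 0.14), or -0.12 without LacZ-shRNA replicate 3. The peak over one of its transcript starts and an exon (chr18:39488775-39492136) held 133.1, 135.0 and 155.7 CPM in LacZ-shRNA and 113.9, 116.3 and 122.4 in Yap-shRNA. Every Yap-shRNA sample was below every control there, as in 6.76% of all peaks, and the log2 fold change was -0.27 (SE 0.13). This peak holds a run of 15 bases that are all G or all C, whose part was not tested. The other peak, in an intron (chr18:39430654-39431207), was faint and level, with a LacZ-shRNA mean of 8.72 ± 1.63 CPM and a Yap-shRNA mean of 8.92 ± 1.23 (SD, n = 3). Neither peak held a receptor element.

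Fkbp5 encodes a co-chaperone that lowers the receptor's affinity for hormone and is itself induced by the receptor. Its window held 9.87, 13.0 and 14.4 CPM per kb in LacZ-shRNA and 10.4, 10.8 and 12.7 in Yap-shRNA. The samples overlapped, at a log2 fold change of -0.14 (SE 0.15, edgeR quasi-likelihood adjusted p 0.958). It was -0.29 without LacZ-shRNA replicate 1, -0.012 without LacZ-shRNA replicate 3, -0.079 without Yap-shRNA replicate 1 and -0.23 without Yap-shRNA replicate 3. Of its 9 peaks, 6 were lower in Yap-shRNA and 3 higher, from -0.64 to 0.22 on the log2 scale. The smallest p of all peaks near the 7 members was at an intronic peak (chr17:28423926-28424898) that also overlaps an exon of AC154912.5. It held 28.5, 41.6 and 34.2 CPM in LacZ-shRNA and 23.5, 23.3 and 24.6 in Yap-shRNA. All Yap-shRNA samples were lower, at a log2 fold change of -0.52 (SE 0.14, edgeR quasi-likelihood adjusted p 0.0857), which misses the threshold. The lowest value of the gene, -0.64 (SE 0.22), came from a narrow peak of 379 bp. This narrow peak holds a run of 28 bases that are all G or all C, whose part was not tested.

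Receptor elements were most frequent at Fkbp5, with 7 of the 18. The strict element lay in the intronic peak at chr17:28419491-28421453, which held 38.1, 60.7 and 63.8 CPM in LacZ-shRNA and 36.6, 43.6 and 53.9 in Yap-shRNA. LacZ-shRNA replicate 1 lay among the Yap-shRNA samples there, and the log2 fold change was -0.29 (SE 0.15, edgeR quasi-likelihood adjusted p 0.581). It ran from -0.49 without LacZ-shRNA replicate 1 to -0.11 without LacZ-shRNA replicate 3, with -0.16 and -0.46 without Yap-shRNA replicates 1 and 3. The peak just upstream of the gene (chr17:28517705-28519493), which holds 2 elements, had a log2 fold change of -0.43 (SE 0.14, edgeR quasi-likelihood adjusted p 0.224), or -0.26 without LacZ-shRNA replicate 3 and -0.27 without Yap-shRNA replicate 1. The other peaks with elements were at -0.32 (SE 0.14), -0.27 (SE 0.13) and 0.004 (SE 0.13), the last being the peak over a transcript start.

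Sgk1 encodes a kinase that resembles Akt and regulates ion channels and growth. Its window, which joins 4 pieces around 11 annotated transcript starts (ENSMUSG00000019970, chromosome 10, plus strand), held 13.2, 19.4 and 19.3 CPM per kb in LacZ-shRNA and 13.6, 13.1 and 14.6 in Yap-shRNA. Replicates 2 and 3 of LacZ-shRNA lay above all other samples and LacZ-shRNA replicate 1 among the Yap-shRNA ones, at a log2 fold change of -0.33 (SE 0.15), or -0.50 without LacZ-shRNA replicate 1.

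The 6 peaks of the Sgk1 region comprised 4 faint ones, 3 of them intergenic and 1 in an intron, and 2 bright ones, over transcript starts and at the 3′ end. The first bright peak (chr10:21992138-21995144) covers 6 of the 11 transcript starts and the strict element. It held 139.1, 173.7 and 182.2 CPM in LacZ-shRNA and 138.6, 132.9 and 141.3 in Yap-shRNA, at a log2 fold change of -0.26 (SE 0.14). The second (chr10:21999823-22002620) lies at the 3′ end, with 81 of its 2798 bp inside the last exon and 2717 beyond the end of the gene. Its element begins 448 bp past that end. It held 117.7, 133.3 and 147.3 CPM in LacZ-shRNA and 68.7, 78.9 and 94.3 in Yap-shRNA. All 3 Yap-shRNA samples were well below all 3 controls, LacZ-shRNA replicate 1 included, and the log2 fold change was -0.73 (SE 0.13). It was the only one of the 8 peaks of both regions past the adjusted threshold, against 0.618% of all peaks, and nothing is read from that count because the region was selected on this contrast. Without Yap-shRNA replicate 1 its log2 fold change was -0.62 and it no longer passed. Both bright peaks hold a run of 13 bases that are all G or all C, whose part was not tested.

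The faint peaks differed by less than their SE. They lay 31133, 23960, 18224 and 4346 bp upstream of the nearest transcript start, the last within an intron of longer transcripts, and their log2 fold changes ran from -0.07 to 0.03. Their mean levels were 6.25 to 27.2 CPM in LacZ-shRNA and 5.80 to 27.7 in Yap-shRNA.

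The ratio of counts in the 3′ end peak to counts in the promoter peak is free of library scaling, since both come from the same sample. It was 0.846, 0.768 and 0.808 in LacZ-shRNA and 0.495, 0.594 and 0.667 in Yap-shRNA. The groups did not overlap, with means of 0.808 ± 0.039 and 0.586 ± 0.086 (SD, n = 3). The 3′ end peak held 34.4% to 36.7% of the region's peak counts in LacZ-shRNA and 24.1% to 30.6% in Yap-shRNA. The ratio restates the fold changes with which the region was proposed, so it is a description and no separate result. LacZ-shRNA replicate 1, low at every member window, had the highest ratio of all samples.

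**Figure D2:**
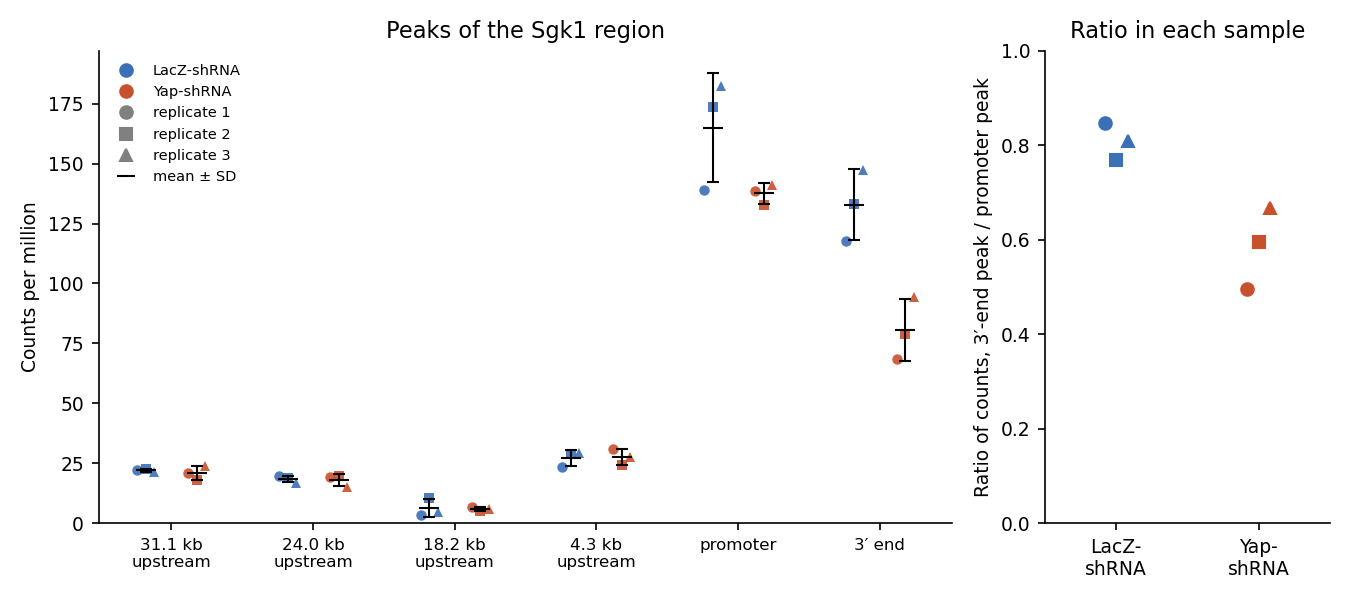
Left, accessibility of the 6 peaks of the Sgk1 region in each sample, in CPM (vertical axis), ordered along the gene and named by distance to the nearest transcript start or by place. Points are samples and bars are mean ± SD (n = 3). Right, the ratio of counts in the 3′ end peak to counts in the promoter peak in each sample, 0.768 to 0.846 in LacZ-shRNA and 0.495 to 0.667 in Yap-shRNA.

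Among the transcription factors that the receptor induces, Zbtb16 (PLZF, a zinc finger repressor) had the most accessible promoter window per kb. Its window (ENSMUSG00000066687, chromosome 9) held 31.8, 40.5 and 42.7 CPM per kb in LacZ-shRNA and 27.9, 28.5 and 29.1 in Yap-shRNA. Every Yap-shRNA sample was below every control, at a log2 fold change of -0.43 (SE 0.14, edgeR quasi-likelihood p 0.0031, adjusted p 0.946). With trended offsets on abundance it was the one member window to pass, at -0.44 (edgeR quasi-likelihood adjusted p 0.0476). Over the 13 alternatives the adjusted p of the Zbtb16 window ran from 0.00084 to 0.9999.

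Zbtb16 is a long gene and had 14 peaks, of which 12 were lower in Yap-shRNA and 2 higher. The smallest p was at an intronic peak 127507 bp downstream of the nearest start (chr9:48706448-48708438). It held 78.3, 113.4 and 104.6 CPM in LacZ-shRNA and 75.6, 72.4 and 74.8 in Yap-shRNA. All Yap-shRNA samples were lower, with LacZ-shRNA replicate 1 close to them, and the log2 fold change was -0.41 (SE 0.13, edgeR quasi-likelihood adjusted p 0.195). The 3 peaks with elements, all intronic, had log2 fold changes of -0.37 (SE 0.13), -0.29 (SE 0.14) and -0.12 (SE 0.12), and the peak over the starts was at -0.19 (SE 0.13).

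Klf15, a Krüppel-like factor that promotes amino acid breakdown in muscle, showed overlapping groups. Its window held 11.7, 14.7 and 16.5 CPM per kb in LacZ-shRNA and 13.3, 12.3 and 12.4 in Yap-shRNA, at a log2 fold change of -0.17 (SE 0.14, edgeR quasi-likelihood adjusted p 0.95). It was -0.31 without LacZ-shRNA replicate 1 and -0.042 without LacZ-shRNA replicate 3. The window overlaps that of Gm44117, so its counts are uncertain. Of its 6 peaks, 5 were lower. The one with the smallest p lies in an intron and carries 2 elements (chr6:90469925-90473381), with 88.4, 96.8 and 108.6 CPM in LacZ-shRNA and 69.7, 86.0 and 81.0 in Yap-shRNA. The Yap-shRNA samples were all lower, at -0.32 on the log2 scale (SE 0.13, edgeR quasi-likelihood adjusted p 0.386). Another peak with an element, in introns of Aldh1l1 and Gm45901, was at -0.28 (SE 0.12).

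Klf9, a related factor with quick hormone response, was similar. Its window held 18.8, 21.5 and 26.6 CPM per kb in LacZ-shRNA and 20.7, 18.7 and 18.9 in Yap-shRNA, and the log2 fold change was -0.21 (SE 0.14, edgeR quasi-likelihood adjusted p 0.949). It was -0.33 without LacZ-shRNA replicate 1 and -0.046 without LacZ-shRNA replicate 3. All 5 of its peaks had values below 0. The brightest member peak of all lies 4129 bp upstream of Klf9 and holds its element (chr19:23132863-23137097). It held 192.5, 220.4 and 225.4 CPM in LacZ-shRNA and 184.2, 160.9 and 166.1 in Yap-shRNA, with no overlap and a log2 fold change of -0.32 (SE 0.14, edgeR quasi-likelihood adjusted p 0.463). The smallest p of the gene was at an intronic peak 18530 bp downstream, at -0.36 (SE 0.14, edgeR quasi-likelihood adjusted p 0.33).

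Cebpd, a bZIP factor of the acute response, was the member nearest to level. Its window held 15.0, 16.5 and 21.1 CPM per kb in LacZ-shRNA and 16.4, 16.7 and 16.4 in Yap-shRNA, at a log2 fold change of -0.10 (SE 0.14, edgeR quasi-likelihood adjusted p 0.969). Only LacZ-shRNA replicate 3 stood above the rest, and without it the value was 0.077, against -0.22 without LacZ-shRNA replicate 1. Of its 5 peaks, 2 were lower and 3 higher. The smallest p was at a peak over a Cebpd exon and an intron of Spidr, at -0.34 (SE 0.13, edgeR quasi-likelihood adjusted p 0.356), and no Cebpd peak held an element.

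Tsc22d3 encodes GILZ, a leucine zipper protein that mediates anti-inflammatory effects of the hormone. Its window (ENSMUSG00000031431, chromosome X) held 8.06, 10.2 and 10.5 CPM per kb in LacZ-shRNA and 6.92, 7.63 and 7.92 in Yap-shRNA. The groups did not overlap, at a log2 fold change of -0.35 (SE 0.14, edgeR quasi-likelihood p 0.0131, adjusted p 0.946). Over all windows, 4.79% had every Yap-shRNA sample below every control, and among the members Zbtb16 and Tsc22d3 did, 2 of 9. Of the 8 Tsc22d3 peaks, 7 were lower in Yap-shRNA. The smallest p was at the peak over a transcript start (chrX:140540575-140543763), with 69.8, 75.6 and 84.0 CPM in LacZ-shRNA and 51.0, 58.4 and 63.7 in Yap-shRNA. All Yap-shRNA samples were lower, at -0.42 on the log2 scale (SE 0.13, edgeR quasi-likelihood adjusted p 0.138). The peak with the element, 28732 bp downstream of the nearest start, was at -0.48 (SE 0.15, edgeR quasi-likelihood adjusted p 0.186), also with no overlap.

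Ddit4 encodes REDD1, an inhibitor of the growth kinase mTORC1, and had the lowest window value of the 9. The window (ENSMUSG00000020108, chromosome 10) held 26.9, 36.03 and 44.3 CPM per kb in LacZ-shRNA and 23.9, 24.6 and 29.2 in Yap-shRNA. LacZ-shRNA replicate 1 lay below the highest Yap-shRNA sample, and the log2 fold change was -0.47 (SE 0.15, edgeR quasi-likelihood p 0.00277, adjusted p 0.946). It was -0.66 without LacZ-shRNA replicate 1 and -0.26 without LacZ-shRNA replicate 3. All 4 Ddit4 peaks were below 0, from -0.37 to -0.25. The smallest p was at an intergenic peak 17629 bp upstream (chr10:59969463-59971048), at -0.37 (SE 0.14, edgeR quasi-likelihood adjusted p 0.311), and none of the peaks held an element.

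In order of level in LacZ-shRNA, the windows ran from Zbtb16 at 38.3 ± 5.7 CPM per kb through Ddit4 at 35.7 ± 8.7, Klf9, Cebpd, Sgk1, Nr3c1, Klf15 and Fkbp5 to Tsc22d3 at 9.58 ± 1.33 (SD, n = 3). The samples of neighbours in this order overlapped except between Ddit4 and Klf9. All 9 were among the more accessible windows, at the 91.2nd to 99.8th percentile of CPM per kb. The order was the same in Yap-shRNA. It depends on window width, which ran from 2001 bp for Ddit4 and 2278 bp for Zbtb16 to 12557 bp for Sgk1 and 14811 bp for Fkbp5. Without scaling to width, the LacZ-shRNA means were 217.5 CPM for Sgk1, 184.1 for Fkbp5, 87.3 for Zbtb16 and 71.5 for Ddit4.

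Without LacZ-shRNA replicate 1, the windows of Tsc22d3, Zbtb16 and Ddit4, 3 of the 7 members other than Nr3c1 and Sgk1, passed the adjusted threshold. That fit called 157 windows in place of 11, and the fit without LacZ-shRNA replicate 3 called 11. LacZ-shRNA replicate 1 was the lowest control in all 9 member windows, so leaving it out raised the control mean at each. These calls are therefore no support for a change. With all samples in, the same 3 had an unadjusted edgeR quasi-likelihood p under 0.05 and a lower level, against 3.01% of all windows, a count over genes listed with these results in view.

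The 51 peaks near the 7 members had a like direction. In Yap-shRNA 41 had values below 0 and 10 above, against 50.5% below 0 over all peaks, with a median of -0.25 against -0.003. None passed the adjusted threshold. At an unadjusted edgeR quasi-likelihood p under 0.05, 24 were lower and 0 higher, against 5.31% lower over all peaks, and in 15 every Yap-shRNA sample lay below every control, against 6.76% of all peaks. The median was -0.13 without LacZ-shRNA replicate 3. Peaks of one gene share their samples and are not independent of each other. The 51 peaks were also brighter than all peaks, at a median of 46.0 CPM against 15.1. Of the 3937 peaks with a mean of at least 50 CPM, 410 were lower at an unadjusted edgeR quasi-likelihood p under 0.05. In 401 of the 3937 every Yap-shRNA sample lay below every control. Both shares were larger there than over all peaks, and the part of brightness was not tested.

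Peaks with a mean of at least 50 or 100 CPM, but not those of at least 20 CPM, were more often lower in the whole series, and 24 of the 59 member peaks reached 50 CPM. At 20 CPM or more, 49.9% of 14213 peaks were below 0, and 36 of the 41 such peaks of the 7 members other than Nr3c1 and Sgk1. Of 778 peaks with a mean of at least 100 CPM, 76.5% were below 0 with a median of -0.11, and all 6 such peaks of the 7 members were, with a median of -0.23. At 50 CPM or more, the share was 59.99% of all peaks, with a median of -0.04, and 20 of 21 peaks of the 7 members, with a median of -0.29.

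**Figure D3:**
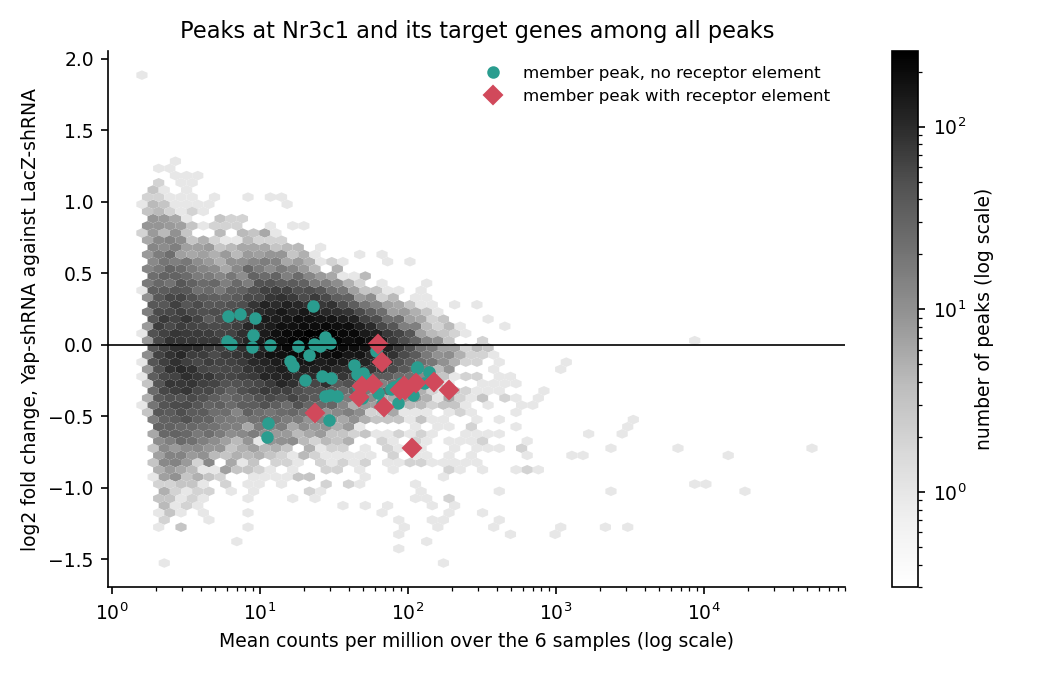
Log2 fold change of Yap-shRNA against LacZ-shRNA (vertical axis) against mean CPM over the 6 samples (horizontal axis, log scale) for all 36097 peaks, as shaded hexagons, and for the 59 member peaks. Diamonds are the 14 member peaks with a receptor element and circles the other 45. Of member peaks with at least 20 CPM, 40 of 46 lie below 0, against 49.9% of all such peaks, a count that includes the Sgk1 and Nr3c1 peaks selected on this contrast, and the lowest diamond is the 3′ end peak of Sgk1 at -0.73.

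The receptor element was present in 14 of 59 member peaks (23.7%) and in 876 of 35982 peaks of the series (2.43%). Since wide peaks hold more sequence, the shares were also set side by side by width. In peaks of 2000 bp or more the element was in 8 of 16 member peaks and in 6.15% of all. In peaks from 1000 to under 2000 bp it was in 5 of 25 and in 2.67%, and in narrower peaks in 1 of 18 and in 1.81%. Sgk1, Fkbp5, Tsc22d3, Klf15, Klf9 and Zbtb16 had at least 1 such peak, and Nr3c1, Cebpd and Ddit4 had none. The members are known targets of the receptor, so a high share is part of what they were chosen for.

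**Figure D4:**
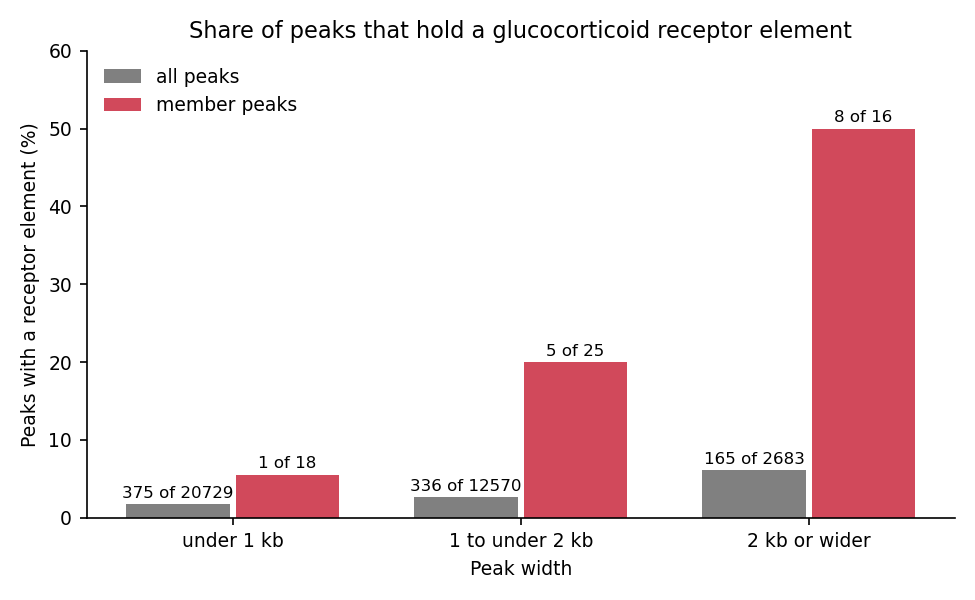
Percentage of peaks that hold a glucocorticoid receptor element (vertical axis) in 3 classes of peak width, for all peaks of the series (grey) and for the member peaks (red), with the counts above each bar. The member share is 50% in the widest class, where all peaks stand at 6.15%.

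Leaving out Sgk1 and Nr3c1, 12 member peaks held the element and 11 of them were below 0, with a median log2 fold change of -0.30. The other 39 peaks of these 7 genes had a median of -0.20, with 30 below 0. Over the whole series, 62.3% of the 876 peaks with the element were below 0, with a median of -0.07. Over all 59, the member peaks with the element were also brighter, at a median of 78.7 CPM against 29.3 for those without, and the part of brightness was not tested.

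Other genes of the pathway were read from 2 lists. Over all windows, 52.7% were below 0 and 0.0223% passed the adjusted threshold. Of 28 genes for receptor handling (steroid enzymes, chaperones, coregulators, import factors), 27 had a window, 16 below 0 (59.3%) and 11 above. None of these 27 passed. Their median log2 fold change was -0.05, and its sign turned with the samples, from -0.16 without LacZ-shRNA replicate 1 to 0.034 and 0.038 without LacZ-shRNA replicates 2 and 3, and to 0.020 with library size alone. The 4 with the smallest p were Hspa8, a chaperone, at -0.42 (SE 0.14), Med1 at 0.26 (SE 0.14), Ep300 at 0.26 (SE 0.14) and Med14 at 0.35 (SE 0.22), the last 3 being coactivators. The windows of Hspa8, Ep300 and Med14 overlap those of other genes and are uncertain.

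Of 33 further genes known to be induced by glucocorticoids, 24 were below 0 (72.7%) and 9 above, against 52.7% below 0 over all windows. The median of the 33 was -0.14. None passed the adjusted threshold, which 0.0223% of all windows passed. The median was -0.23, -0.084 and -0.055 without LacZ-shRNA replicates 1, 2 and 3. The 4 with the smallest p were Arrdc2, an arrestin domain protein, at -0.55 (SE 0.16), Glul, glutamine synthetase, at -0.39 (SE 0.14), the clock gene Per1 at -0.34 (SE 0.15) and Pdk4, an inhibitor of pyruvate dehydrogenase, at -0.30 (SE 0.15). Arrdc2, Glul and Gpt2 of this list were also named by the study on these samples, and the Glul window overlaps others. Trim63 and Fbxo32, the ubiquitin ligases of muscle wasting, were at -0.06 (SE 0.14) and -0.10 (SE 0.20).

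Across the 6 samples the member windows correlated with each other. The Pearson correlation of log2 CPM over the 36 pairs of windows ran from 0.611 for Tsc22d3 with Cebpd to 0.985 for Nr3c1 with Ddit4, with a median of 0.857. These points share libraries and scaling, and the contrast is part of the spread. The same was not computed for pairs of other windows, so such values are not shown to be particular to the members. Of 38880 windows with a mean count of at least 50, the 5 most like Nr3c1 were Gadd45g (0.998), Rragd (0.994), Rc3h1 (0.992), Gm24041 (0.988) and Fem1a (0.987). Those most like Sgk1 were Psmd7 (0.998), Tppp2 (0.995), Rsc1a1 (0.994), Stbd1 (0.994) and Ncoa2 (0.994), the last overlapping other windows. Both sets of 5 are the highest of 38880 correlations over 6 samples, so they are a description and do not show shared regulation.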

How the data were processed

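ATAC-seq of sorted myonuclei gave 2 tables of the same 6 samples. The authors deposited whole-number read counts per peak and per promoter window, not normalised. Following the study's methods and the submitters' processing notes, reads were mapped to GRCm38 with BWA 0.7.17, duplicates were removed with SAMtools 1.8, peaks were called with MACS 1.4.2-1, and those found in at least 2 samples were counted with featureCounts 1.5.0. Rows with a mean under 10 had been discarded. A mapping quality minimum for these tables and the transposase offset are not given in the sources used here, so reads from repeats may be included.

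All 49366 window identifiers matched the GENCODE annotation of the same build. Windows reach 1 kb on either side of each annotated start of a transcript, and 21.0% overlap another gene's window. Groups were compared over each whole table with the edgeR 4.0.16 quasi-likelihood test in R 4.3.3, scaled by TMM, without covariates and at a Benjamini-Hochberg adjusted p of 0.05. On simulated data, the test found 73.5% of 200 peaks given a log2 change of 1, with 12 false calls, and 7.5% of those given 0.5. In windows it found 77% and 5.5%, so most changes of the smaller size would be missed over the table as a whole. The changed rows were drawn at random, and the median level was 10.2 CPM for all windows against 79.8 for the 9 members. The rates are therefore not those for windows as bright as the members. Replicates of a group differed by more than sampling noise (chi-square per feature of at least 1.95).

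Text names all member windows, all peaks of both regions, for each other member the peak of smallest p and every peak with the element, the 4 genes of smallest p in each list, and the 5 windows most like Nr3c1 and Sgk1. The lowest Fkbp5 peak, Gpt2, Trim63, Fbxo32 and the peaks over starts of Fkbp5 and Zbtb16 are named in addition, chosen after their values were seen. Members and lists were chosen with earlier results of these data known. Motifs were matched exactly with Python 3.11.15. The alternatives tried were DESeq2 1.42.0, the likelihood-ratio test, other scaling, loess offsets on abundance (span 0.3), a mean count of at least 50, a replicate block and leaving out each sample.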

Additional observations from a re-analysis of the deposited data

How the results depend on the processing

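Under 13 alternatives the number of member windows below 0 was 8 or 9 and the number of the 51 nearby peaks below 0 was 36 to 45. The summaries of nearby peaks and the medians were added after seeing the data. Library size alone moved the median of all peaks to 0.14 and of all windows to 0.05, and the median of the nearby peaks was then -0.11. Called peaks were 223, and 378 by the likelihood-ratio test, 118 by DESeq2, 144 under abundance offsets, 136 at a mean count of at least 50 and 94 to 447 when leaving out a sample (94 without Yap-shRNA replicate 1 or 2, 447 without LacZ-shRNA replicate 3). With library size alone 124 of 229 called peaks were higher in Yap-shRNA, against 17 of 223. Called windows were 11, and 33, 20 and 33 with the first 3 of these and 4 to 157 when leaving out a sample (157 without LacZ-shRNA replicate 1, 4 without Yap-shRNA replicate 2, 5 without Yap-shRNA replicate 1). Member windows called were 0, and 1 with abundance offsets and 0 to 4 when leaving out a sample, Sgk1 being 1 of the 4. Region peaks called were 1, and 0 to 1 when leaving out a sample, 0 without Yap-shRNA replicate 1. Nearby peaks called were 0, and 1 with the likelihood-ratio test, 2 without LacZ-shRNA replicate 1 and 1 without Yap-shRNA replicate 3.

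Values near 0 changed sign. With library size alone, the intronic Nr3c1 peak was at 0.11, the Sgk1 peaks 31133 and 23960 bp upstream at 0.065 and 0.13, and the Zbtb16 peak 10180 bp downstream of a start at 0.020. The Sgk1 peak 18224 bp upstream was at -0.015 with DESeq2, and the Fkbp5 peak over a start at -0.00069 at a mean count of at least 50. Leaving out a sample gave -0.12 to 0.17 for the intronic Nr3c1 peak, -0.18 to 0.025, -0.087 to 0.084, -0.18 to 0.48 and -0.080 to 0.11 for the 4 faint Sgk1 peaks, -0.070 to 0.16 for the Fkbp5 peak and -0.22 to 0.077 for the Cebpd window. The cause was not tested. Both groups carry replicate numbers 1 to 3. Neither labels nor methods say that a number marks the same mice, so the numbers were not taken as pairs. Deviations of same-numbered samples correlated at 0.011, -0.18 and -0.20 in peaks and 0.17, -0.17 and 0.086 in windows. With 3 samples per group, these correlations cannot show whether pools share mice. With a replicate block 207 peaks and 13 windows were called, no member window among them, and the intronic Nr3c1 peak was at 0.0036.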

Other observations

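Motifs of other factors were also counted in the 59 member peaks, on both strands. The TEAD motif ACATTCC was present in 12 (20.3%), against 8.96% of all peaks. By width it was in 2 of 16 member peaks of 2000 bp or more, against 23.7% of all, in 7 of 25 from 1000 to under 2000 bp, against 11.0%, and in 3 of 18 narrower ones, against 5.83%. The AP-1 motif TGANTCA was present in 21 member peaks (35.6%), against 16.6% of all peaks. By width it was in 10 of 16, 7 of 25 and 4 of 18, from widest to narrowest, against 38.2%, 19.3% and 12.1% of all. The single arm TGTTCT of the receptor element was present in 39 (66.1%), against 43.2% of all peaks. By width, in the same order, it was in 15 of 16, 17 of 25 and 7 of 18, against 75.6%, 51.3% and 34.1%. These shares are descriptions and no test was run on them.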
